A study of Anser cygnoides with 6 samples.

Results

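Solute carriers are membrane proteins that move amino acids, peptides, ions, metals, vitamins, nucleotide sugars and drugs across the plasma membrane and the membranes of organelles. The transporters described here are the gene models of the goose liver mRNA table whose description names a solute carrier family, a solute carrier organic anion transporter or a sodium/chloride dependent transporter. Family 2 (facilitated glucose transport) and family 25 with the other mitochondrial carriers were left out. The wording matched 151 models, 31 of them belonged to the families left out, and 120 of the 21009 gene models of the table remained. They came from 22 families and were matched by the words of their descriptions. The largest families were SLC35 with 23 models, SLC6 with 20, SLC22 with 13, SLC12 with 10 and the organic anion transporters (SLCO) with 10. The goose models carry no gene symbols, so a name such as SLC35B1 stands for the family member in the description, and a model whose description gives only the family is named by its family and position.

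Liver RNA was sequenced from lion-head geese, 3 of them high-intake-fed and 3 normally-fed, each library from a single adult bird. The birds of the high-intake-fed group received forced meals each day, normally-fed geese ate at will, and all were without feed overnight before they were killed. Each group was kept in its own isolator, so that feeding and housing cannot be told apart, and the sex of the birds sequenced is not stated. The comparison asks which transport mRNAs differ in the liver that stores fat under overfeeding, and because whole liver was used, fewer cells of a type and less RNA per cell cannot be told apart.

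In the liver, hepatocytes take up amino acids and organic anions from portal blood, release iron through ferroportin, and load sugars onto proteins in the endoplasmic reticulum and Golgi with the help of nucleotide sugar carriers. SLC6 proteins couple the entry of amino acids, monoamines, betaine or creatine to sodium and chloride, and SLC15 proteins couple peptide entry to protons. SLC35 proteins are mostly nucleotide sugar carriers of the secretory pathway, although several of them have no established substrate. These roles are known mainly from mammals.

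The libraries held between 14154910 and 16993373 counts, and the 120 transporters took between 0.267% and 0.322% of them in high-intake-fed and between 0.285% and 0.312% in normally-fed birds. Levels are given as CPM, the count scaled to library size with the trimmed mean of M values. Markers of hepatocytes summed to between 103102 and 228549 CPM in high-intake-fed and between 230786 and 299177 CPM in normally-fed livers, with all 15 models detected, 2 of them albumin. The low end was high-intake-fed replicate 2, and the other birds of its group reached 220971 and 228549 CPM. Most of the sum was an albumin model whose groups overlapped. It had 181606, 70703 and 178789 CPM in high-intake-fed livers, against 163787, 179702 and 242532 CPM in normally-fed livers. Of the 15 models 3 had a positive log2 fold change. The groups did not overlap for 6 that were lower (40%) and 2 that were higher (13.3%), beside 13.3% and 11.1% of all tested models. The lower ones included a transferrin model, with 7210, 11622 and 5227 CPM in high-intake-fed livers, against 28190, 22910 and 25531 CPM in normally-fed livers. An apolipoprotein A model was higher without overlap, with 14693, 12149 and 32870 CPM in high-intake-fed livers, against 8943, 7813 and 5760 CPM in normally-fed livers. Hemoglobin models summed to between 538 and 876 CPM in high-intake-fed and between 207 and 364 CPM in normally-fed livers, with 6 of 6 models detected. Hemoglobin marks red blood cells. Summed markers of stellate cells and fibroblasts (2 of 2 models detected) lay between 107 and 167 CPM in high-intake-fed and between 220.3 and 289.7 CPM in normally-fed livers, nearly all of it decorin. The other marker, lumican, went the opposite way, with 5.83, 6.34 and 6.5 CPM in high-intake-fed livers, against 2.92, 5.31 and 1.55 CPM in normally-fed livers. Endothelial markers (3 of 3 detected) summed to between 88.9 and 113 CPM in high-intake-fed and between 122 and 172 CPM in normally-fed livers. Of these, the 2 models of von Willebrand factor were lower without overlap, whereas PECAM1 overlapped. PECAM1 had 71.8, 73.6 and 57.5 CPM in high-intake-fed livers, against 74.4, 75.4 and 69.3 CPM in normally-fed livers. The sums of these 4 lists did not overlap between groups, although single markers in them did, and their part in the results below was not tested. Summed markers of cholangiocytes, macrophages (mannose receptor 1 models only) and kidney or gut epithelium (villin models only) overlapped between the groups. The sums lay between 8.82 and 13.1, between 263 and 365 and between 108 and 129.8 CPM in high-intake-fed livers. In normally-fed livers they lay between 11.8 and 17.4, between 349 and 421 and between 118 and 151 CPM. How specific these markers are in goose liver was not tested. In each list 1 tested model was lower without overlap and 0 were higher. The lower ones were EPCAM, a mannose receptor model and a villin model, or 50%, 33.3% and 16.7% of those tested, beside 13.3% of all tested models. The mannose receptor model had 8.2, 12.2 and 10.5 CPM in high-intake-fed livers, against 43.7, 20.7 and 25.9 CPM in normally-fed livers.

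Of the 120 transporters, 86 had enough counts to be tested with edgeR together with all other models, 12914 in all, and 34 did not. The 34 averaged at most 0.91 CPM, and 3 of them had no count in any library. The words rose and fell are kept for an adjusted p under 0.05. By this rule 2 transporters rose in high-intake-fed livers, where 0.643% of all tested models were called higher. None fell, where 0.829% of all tested models were called lower, and 9 were lower at an unadjusted p under 0.05 (9.71% of all tested models). DESeq2 called 9 transporters higher and 2 lower, beside 3.48% of all models it tested higher and 3.81% lower. With limma 2 were higher and 0 lower, beside 0.643% and 0.991% of all models. The median log2 fold change of the 86 transporters was -0.056, against 0.036 over all tested models, and 40 of the 86 had a positive value. The median was 0.032 without high-intake-fed replicate 1 and 0.041 without normally-fed replicate 1. No transporter rose without high-intake-fed replicates 1 or 2 or normally-fed replicates 2 or 3, each left out alone. Over all models 43 and 66 were called higher without high-intake-fed replicates 1 and 2, against 83 with all birds. With calls that rare, a count of 0 does not set the transporters apart. Without high-intake-fed replicate 3, 3 transporters rose, where 2.38% of all models did. Without high-intake-fed replicate 2, 1 fell, where 0.718% of all models did.

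The first of the risen transporters was the sodium/chloride dependent transporter maker-Hic_scaffold_14-augustus-gene-74.1, an SLC6 model on the plus strand at chr14:7366033-7430750 with a coding length of 1995 bases. The sources used here do not name the genome build of these positions, and exons were not analysed. Its counts were 263, 299 and 251 in high-intake-fed and 62, 16 and 14 in normally-fed replicates 1, 2 and 3. Scaled, it had 18.3, 19 and 15.2 CPM in high-intake-fed livers, against 4.12, 0.944 and 0.901 CPM in normally-fed livers. All 3 high-intake-fed birds lay close together and above every normally-fed bird, and normally-fed replicate 1 was the highest of its group. The log2 fold change was 3.14 ± 0.57 (SE), which is 8.82-fold (edgeR, adjusted p = 0.0459, exact permutation p = 0.1, the smallest that 3 birds against 3 allow). FPKM in the deposited table was 2.15, 2.66 and 1.19 in high-intake-fed and 0.363, 0.0909 and 0.13 in normally-fed livers. The description places the protein among the sodium-coupled neurotransmitter symporters, which are the SLC6 proteins, and names no substrate.

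SLC15A5, at chr1:148989328-149019215 on the plus strand, was the second. It belongs to the proton-coupled peptide transporter family, and its own substrate is not established. It had 4.17, 5.52 and 4.62 CPM in high-intake-fed livers, against 0.797, 0.236 and 0.0644 CPM in normally-fed livers, which are 60, 87 and 76 counts against 12, 4 and 1. The groups did not overlap, and in normally-fed livers the mRNA was near the limit of detection, so that it passed the count filter through the high-intake-fed libraries, where it is high. The log2 fold change was 3.69 ± 0.69 (SE, adjusted p = 0.0496).

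Both adjusted p values lay just under the threshold and stayed there in only some fits with 1 bird left out. Such fits also have fewer birds and so less power. Over all models the higher calls went from 83 to 43, 66 and 312 without high-intake-fed replicates 1, 2 and 3. They went to 14 without normally-fed replicate 1. The part of the single bird and that of the smaller sample were not told apart. When high-intake-fed replicates 1, 2 and 3 were left out in turn, the adjusted p of the SLC6 model was 0.0904, 0.0749 and 0.0486, and that of SLC15A5 was 0.0878, 0.0889 and 0.0536. With normally-fed replicates 1, 2 and 3 left out in turn it was 0.0115, 0.158 and 0.164 for the SLC6 model, and for SLC15A5 it was 0.0431, 0.185 and 0.132. The log2 fold change of the SLC6 model stayed between 2.83 and 4.23 and that of SLC15A5 between 3.23 and 4.89 in these fits. With scaling by library size alone the adjusted p was 0.063 for the SLC6 model and 0.0715 for SLC15A5, and neither was called.

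**Figure D1:**
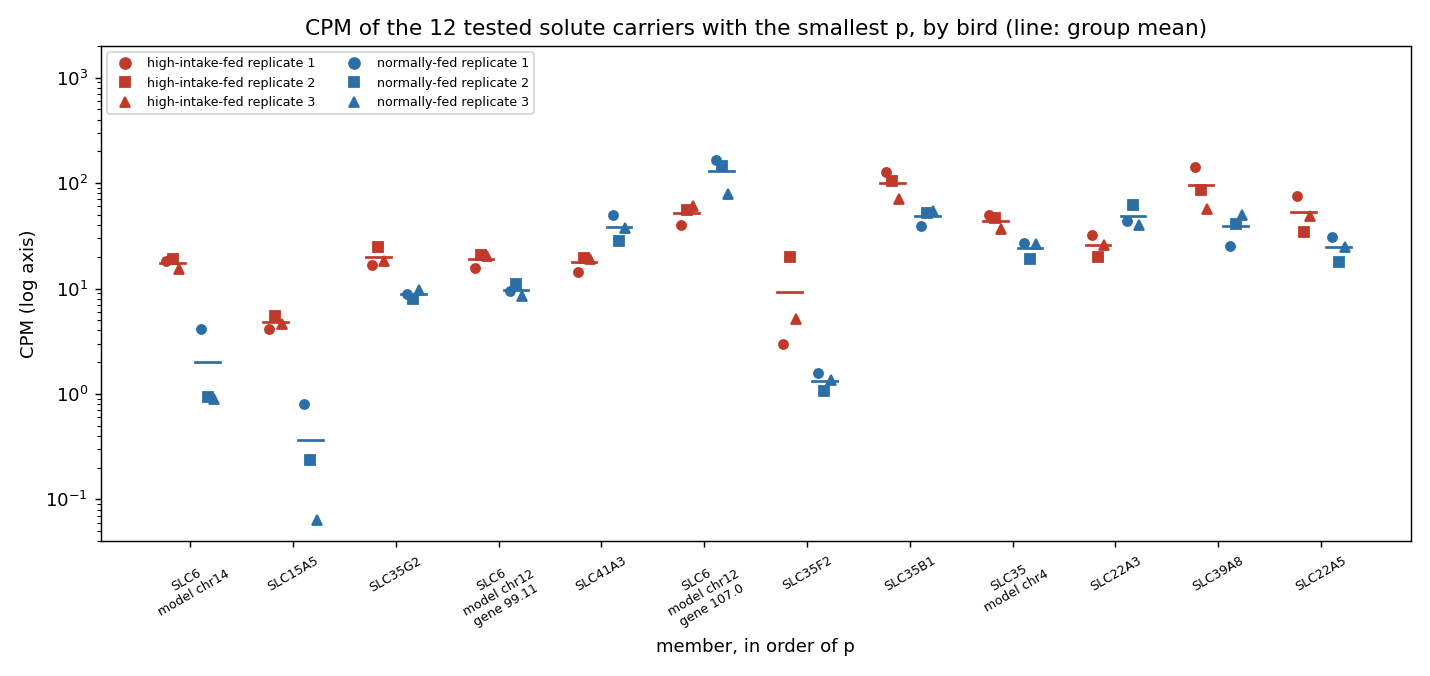
CPM on a log axis of the 12 tested solute carriers with the smallest p, with high-intake-fed birds in red left of normally-fed birds in blue and a line at each group mean. The SLC6 model on chromosome 14 lay between 15.2 and 19 CPM in high-intake-fed birds and between 0.901 and 4.12 CPM in normally-fed birds, and none of the 12 had overlapping groups.

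For differential expression the methods of the study give a fold over 2 with a p under 0.05. The legend of its volcano plots names a false discovery rate and another fold limit instead. By a fold over 2 with an unadjusted edgeR p under 0.05, 8 of the 86 transporters (9.3%) were higher and 4 (4.65%) were lower. Over all tested models the shares were 4.26% higher and 5.33% lower. The groups did not overlap for 12 transporters that were higher (14%) and for 12 that were lower (14%) in high-intake-fed livers, beside 11.1% and 13.3% of all tested models. The unadjusted p was under 0.05 for 12 higher and 9 lower transporters, and for 8.67% and 9.71% of all tested models. Without high-intake-fed replicate 2, 22 transporters were lower without overlap and 8 were lower past the fold threshold, beside 17.6% and 5.8% of all models tested in that fit.

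The amino acid class held 23 models, of families 6, 7 and 43, and 12 of them were tested. The class follows family numbers, so it includes SLC6 carriers of monoamines, betaine and GABA. The 12 tested models had a median log2 fold change of -0.27. At an unadjusted p under 0.05, 2 were higher and 2 were lower (16.7% each), beside 8.67% and 9.71% of all tested models. One of the 2 lower was SERT, the serotonin transporter of mammals, named here after its values were seen (log2 fold change -0.43, adjusted p = 0.268). Beside the risen model, a second SLC6 model at chr12:9979139-9983254 had 15.8, 20.8 and 20.4 CPM in high-intake-fed livers, against 9.49, 11 and 8.5 CPM in normally-fed livers. Its groups did not overlap, and its log2 fold change of 0.97 ± 0.22 (SE) had an adjusted p of 0.0781. Another SLC6 model, at chr12:10631093-10700160, went the other way, with 39.9, 56.1 and 60.5 CPM in high-intake-fed livers, against 166, 144 and 79.2 CPM in normally-fed livers. Here too the groups did not overlap, and the log2 fold change was -1.31 ± 0.32 (SE, adjusted p = 0.0912). The 3 SLC6 models with the smallest p thus differed in direction, and none of the 3 descriptions names a substrate.

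Another abundant SLC6 mRNA was the model with the substrate-binding domain of BGT1, which carries betaine and GABA in mammals. It had 86.7, 218 and 90.7 CPM in high-intake-fed livers, against 89.8, 89 and 97.7 CPM in normally-fed livers. One bird, high-intake-fed replicate 2, stood above the other 5, which were within a narrow range. The log2 fold change of 0.52 (adjusted p = 0.509) became -0.06 without that bird. Of the 20 SLC6 models 9 were tested, and the other 11 were below the filter. One of these, on chromosome 17 and named here after its values were seen, had no count in any high-intake-fed library. It had 16 counts in the normally-fed libraries together. Against a floor of 3 counts over the high-intake-fed group it was 5.23-fold lower there, a limit set by the floor and not a measured fold. That value allows for counting error in the high-intake-fed group only and comes from no test. It does not allow for error in the 16 counts, of which 10 came from normally-fed replicate 1.

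Peptide carriers of family 15 comprised 4 models, of which 3 were tested. Besides SLC15A5 the smallest p was that of an SLC15A1 model on chromosome 7, the intestinal peptide transporter in mammals, with 1.6, 0.571 and 0.668 CPM in high-intake-fed livers, against 2.46, 0.472 and 1.74 CPM in normally-fed livers. Its groups overlapped (log2 fold change -0.72, adjusted p = 0.648).

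Nucleoside, nucleotide sugar and vitamin carriers formed the largest class, with 31 models and 22 tested. At an unadjusted p under 0.05, 6 were higher (27.3%) and 0 were lower, beside 8.67% and 9.71% of all tested models. All 6 were SLC35 models. The same 6 were higher without overlap and 0 were lower without overlap, beside 11.1% and 13.3% of all tested models. None passed edgeR's adjusted p. DESeq2 called 4 higher, beside 3.48% of all models it tested, and limma called 0. The class had a median log2 fold change of 0.39. The 17 tested SLC35 models had a median of 0.59 and 12 positive values, a family singled out here after its values were seen.

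SLC35G2, an SLC35 protein without an established substrate, had 16.8, 25 and 18.3 CPM in high-intake-fed livers, against 8.96, 7.97 and 9.72 CPM in normally-fed livers. Its log2 fold change was 1.17 ± 0.23 (SE) with an adjusted p of 0.057, which was 0.0456 without high-intake-fed replicate 3 and between 0.0806 and 0.226 without any other single bird. SLC35B1, an endoplasmic reticulum carrier that exchanges adenine nucleotides in human cells, had 127, 104 and 71 CPM in high-intake-fed livers, against 38.8, 51.6 and 54.3 CPM in normally-fed livers. Its log2 fold change was 1.06 ± 0.27 (SE, adjusted p = 0.1), and the adjusted p was 0.0341 without high-intake-fed replicate 3 and between 0.151 and 0.302 without any other single bird. In both genes the lowest high-intake-fed bird was above the highest normally-fed bird.

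SLC35F2 had 2.99, 19.7 and 5.16 CPM in high-intake-fed livers, against 1.59, 1.06 and 1.35 CPM in normally-fed livers. High-intake-fed replicate 2 carried much of its log2 fold change of 2.79 ± 0.70 (SE, adjusted p = 0.0988), although the other 2 birds of its group were also above all normally-fed birds. An SLC35 model on chromosome 4 had 49.5, 46.4 and 36.4 CPM in high-intake-fed livers, against 27.3, 18.9 and 26.3 CPM in normally-fed livers (log2 fold change 0.87, adjusted p = 0.107). SLC35E2B averaged 91.7 ± 6.11 CPM in high-intake-fed livers, against 60.3 ± 9.15 CPM in normally-fed livers (SD, n = 3 birds each), without overlap (log2 fold change 0.61, adjusted p = 0.171). The last of the 6, a member B model on chromosome 3, had 12.4, 12.6 and 19.1 CPM in high-intake-fed livers, against 10.2, 7.32 and 10.6 CPM in normally-fed livers, with a log2 fold change of 0.65 and an adjusted p of 0.255. The fold changes of the last 3 lay between 1.52-fold and 1.82-fold on the fitted scale. The 11 remaining tested SLC35 models had overlapping groups.

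**Figure D2:**
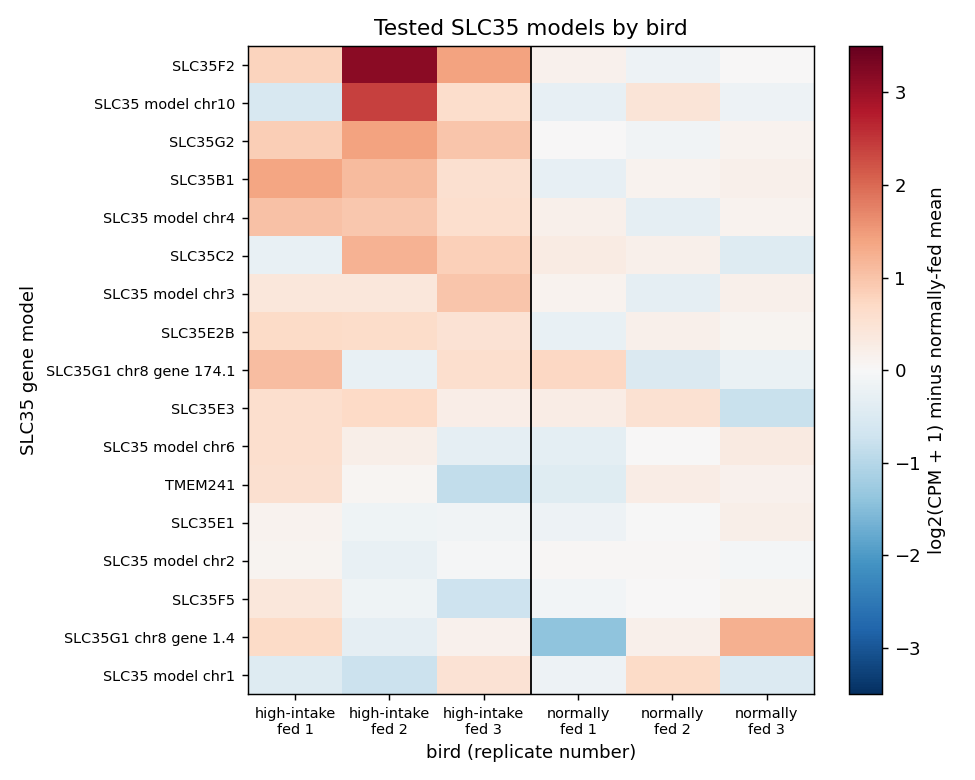
Log2(CPM + 1) of each of the 17 tested SLC35 models in each bird, minus the mean of the normally-fed birds, with high-intake-fed birds left of the line. The 6 models with an unadjusted p under 0.05 were above the normally-fed mean in all 3 high-intake-fed birds, and SLC35F2 reached 19.7 CPM in high-intake-fed replicate 2.

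Metal carriers comprised 15 models, of which 12 were tested, with a median log2 fold change of -0.11. SLC39A8 (ZIP8), which brings zinc and manganese into cells in mammals, had 142, 86.2 and 56.8 CPM in high-intake-fed livers, against 25.4, 41.1 and 49.9 CPM in normally-fed livers. The groups did not overlap, but the lowest high-intake-fed bird was close to the highest normally-fed one, and the log2 fold change of 1.29 ± 0.38 (SE) had an adjusted p of 0.137. SLC41A3, of a family of magnesium carriers, had 14.4, 19.5 and 19.1 CPM in high-intake-fed livers, against 49.5, 28.3 and 37.7 CPM in normally-fed livers. All 3 high-intake-fed birds were lower, with a log2 fold change of -1.12 ± 0.26 (SE, adjusted p = 0.0807).

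Ferroportin (SLC40A1), the exporter of cellular iron, was the most abundant transporter per length, at 368 CPM per kb of coding sequence over the 6 birds. It had 589.6, 654 and 502 CPM in high-intake-fed livers, against 510.0, 709 and 798 CPM in normally-fed livers, and its groups overlapped (log2 fold change -0.21, adjusted p = 0.755). The copper importer SLC31A1 averaged 91 CPM per kb. It had 52.4, 124 and 38.4 CPM in high-intake-fed livers, against 49.3, 49 and 54 CPM in normally-fed livers, so that high-intake-fed replicate 2 alone was high. The log2 fold change was 0.50 (adjusted p = 0.573), and -0.16 without that bird.

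Organic anion and cation carriers comprised 23 models, of which 18 were tested, with a median log2 fold change of -0.23. At an unadjusted p under 0.05, 1 was higher (5.56%) and 4 were lower (22.2%), beside 8.67% and 9.71% of all tested models. The one on the higher side was SLC22A5, the carnitine transporter of mammals, with 75.3, 34.5 and 48.5 CPM in high-intake-fed livers, against 30.9, 17.8 and 24.8 CPM in normally-fed livers. Its groups did not overlap, and its log2 fold change was 1.11 ± 0.33 (SE, adjusted p = 0.14). A neighbouring model has the same description and between 0.486 and 6.08 CPM, and whether they share reads was not tested. SLC22A3, an organic cation transporter, had 32.1, 19.7 and 25.7 CPM in high-intake-fed livers, against 43.7, 61.9 and 39.9 CPM in normally-fed livers (log2 fold change -0.91, adjusted p = 0.129).

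The organic anion transporter SLCO2B1 had 32.7, 71.5 and 88.3 CPM in high-intake-fed livers, against 131, 132 and 108 CPM in normally-fed livers (log2 fold change -0.94, adjusted p = 0.208). SLCO4A1, a thyroid hormone carrier in mammals, was low throughout, with 0.834, 0.127 and 0.668 CPM in high-intake-fed livers, against 1.13, 2.24 and 2 CPM in normally-fed livers (log2 fold change -1.71, adjusted p = 0.231). An SLC22A15 model on chromosome 8 had 8.89, 8.05 and 6.68 CPM in high-intake-fed livers, against 11.4, 12.1 and 10.8 CPM in normally-fed livers (log2 fold change -0.54, adjusted p = 0.255). The other SLC22A15 model, on chromosome 1, had overlapping groups, with 9.31, 5.96 and 10.2 CPM in high-intake-fed livers. It had 10.4, 3.95 and 6.18 CPM in normally-fed livers (log2 fold change 0.32, adjusted p = 0.727). The 4 carriers that were lower at an unadjusted p under 0.05, SLC22A3 included, had groups that did not overlap. Of 18 tested models in the class, 5 were lower without overlap (27.8%) and 1 was higher (5.56%). Over all tested models these shares were 13.3% and 11.1%. SLC22A23, a family member without an established substrate, was the second most abundant transporter per length, at 113 CPM per kb. It had 144, 49.2 and 128 CPM in high-intake-fed livers, against 109, 139 and 166 CPM in normally-fed livers, and these overlapped (adjusted p = 0.684).

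Carriers of inorganic anions, with the sodium-coupled citrate and dicarboxylate transporters of family 13, comprised 17 models, of which 13 were tested, with a median log2 fold change of -0.28. An SLC12A4 model at the start of chromosome 14, of the potassium chloride cotransporter kind, had 2.92, 4.31 and 4.25 CPM in high-intake-fed livers, against 6.04, 6.26 and 6.95 CPM in normally-fed livers (log2 fold change -0.74, adjusted p = 0.22). SLC12A8 had 1.74, 5.33 and 5.59 CPM in high-intake-fed livers, against 2.39, 1.42 and 1.48 CPM in normally-fed livers. Groups of this SLC12A4 model did not overlap, whereas those of SLC12A8 did (log2 fold change 1.26, adjusted p = 0.241). Another SLC12A4 model on chromosome 14 had overlapping groups (log2 fold change -0.60, adjusted p = 0.42).

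Only 1 of the 2 monocarboxylate models whose description names a solute carrier family was tested. This was SLC16A7 (MCT2), a carrier of pyruvate, lactate and ketone bodies in mammals. It had 27.4, 1.08 and 18.5 CPM in high-intake-fed livers, against 83.1, 100.4 and 87.4 CPM in normally-fed livers. Every high-intake-fed bird was far below every normally-fed bird, and high-intake-fed replicate 2 was lower still. On the log2 scale the fold change was -2.53 ± 0.84 (SE) with an adjusted p of 0.169. Without high-intake-fed replicate 2 the log2 fold change was -1.98 and the adjusted p 0.0276, whereas without any other single bird the adjusted p lay between 0.183 and 0.392. A further 15 models are described as monocarboxylate transporters but name no solute carrier, and 13 of them were tested. At an unadjusted p under 0.05, 1 of these was higher (7.69%) and 2 were lower (15.4%). Over all tested models the shares were 8.67% and 9.71%.

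The remaining classes were small. SLC45A3, of the sugar class, had 115, 70.4 and 201 CPM in high-intake-fed livers, against 117, 69.2 and 34 CPM in normally-fed livers (log2 fold change 0.81, adjusted p = 0.444), and SLC45A4 had a log2 fold change of -0.02. Among vesicular and lysosomal carriers, sialin (SLC17A5), the lysosomal exporter of sialic acid, and SLC17A9, a vesicular nucleotide transporter in mammals, had log2 fold changes of -0.16 and -0.10. SLC49A3 had one of -0.17. Groups overlapped in all 5 of these models.

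**Figure D3:**
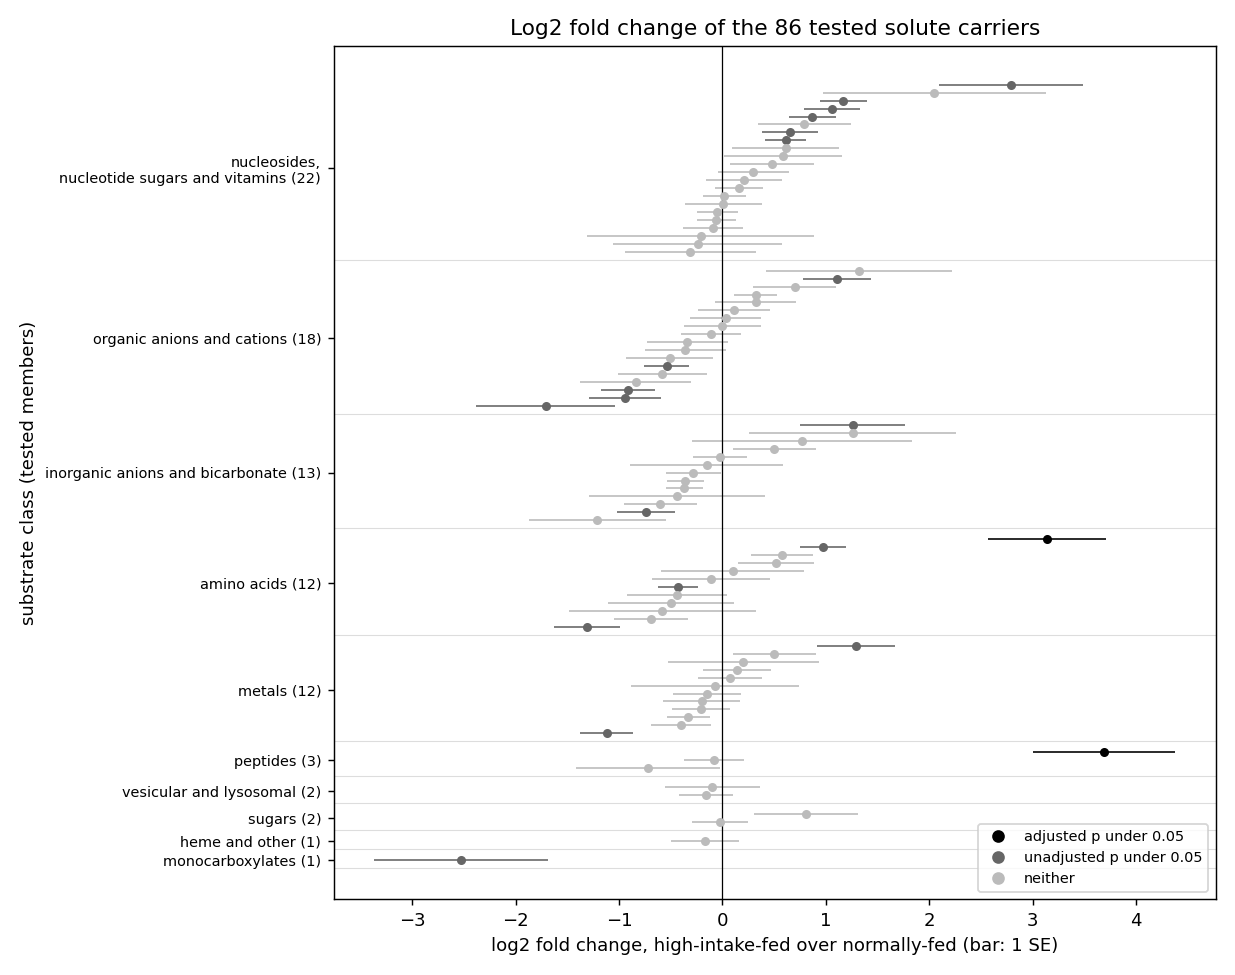
Log2 fold change, high-intake-fed over normally-fed, of each of the 86 tested solute carriers, by substrate class, with bars of 1 SE. The 2 black points, the SLC6 model on chromosome 14 at 3.14 and SLC15A5 at 3.69, are those with an adjusted p under 0.05.

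By the mean over all 6 birds, the 8 most abundant transporters per length were SLC40A1, SLC22A23, SLC31A1, SLC35B1, SLC35F5, SLC35E2B, the BGT1-type SLC6 model and SLC45A3. Deposited FPKM does not give the same order. By mean FPKM, SLC39A8 was above SLC31A1. SLC39A8 had an FPKM of 33.5, 20.9 and 9.02 in high-intake-fed and 3.42, 10.4 and 12.1 in normally-fed livers. SLC31A1 had 8.65, 21.1 and 7.9 in high-intake-fed and 7.76, 9.33 and 10.4 in normally-fed livers. The order by CPM per kb also differed between the groups. In normally-fed livers the SLC6 model at chr12:10631093-10700160 (80.7 CPM per kb), SLC16A7 (74.5) and SLCO2B1 (59.7) were above SLC35B1 (50.7) and SLC45A3 (42.7). SLC35F5 averaged 68.7 CPM per kb and had 129, 87.4 and 58.7 CPM in high-intake-fed livers, against 90.9, 98.9 and 104 CPM in normally-fed livers. Ferroportin thus stood at 368 CPM per kb, the next at 113 and the eighth at 58.8, while the risen SLC6 model averaged 4.88 CPM per kb and SLC15A5 1.79. The transporters that passed the test were therefore not among the abundant ones.

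High-intake-fed replicate 2 stood apart in several transporters. Among the 72 tested transporters that reached 5 CPM in any bird, it was at least 2-fold above or below the nearest other bird in 8 (11.1%), 5 times as the highest bird and 3 times as the lowest. Over all such models its share was 3.13%, and the other birds stood apart in between 0 and 3 of the 72 transporters. The gap to the nearest bird was 13.3-fold for SLC13A3, 9.37-fold for SLC16A7 and 4.35-fold for SLC13A2. SLC13A2 and SLC13A3 are sodium-coupled dicarboxylate transporters in mammals. SLC13A2 had 16.3, 215 and 11.4 CPM in high-intake-fed livers, against 22.3, 48.7 and 29.9 CPM in normally-fed livers, and SLC13A3 had 55.2, 2.41 and 65 CPM in high-intake-fed livers, against 44.4, 56.3 and 65.6 CPM in normally-fed livers. The same bird was thus highest for one and lowest for the other, and neither differed between the groups by the test (adjusted p = 0.559 for SLC13A2 and 0.838 for SLC13A3). SLC13A2 and SLC13A3, and the count of birds standing apart, were chosen after their values were seen.

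**Figure D4:**
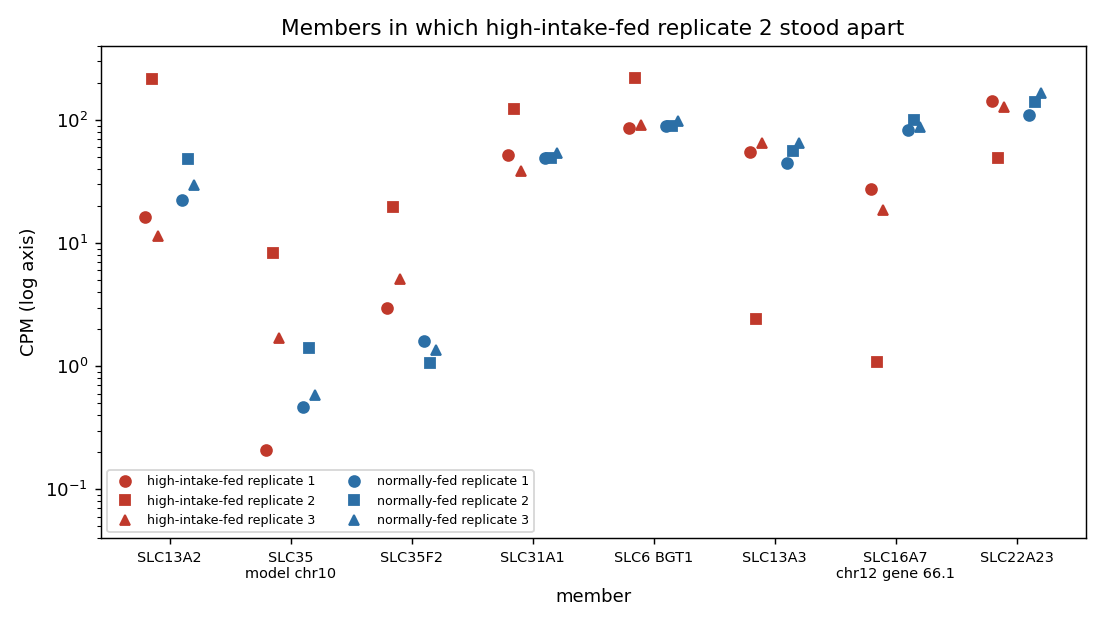
CPM on a log axis of the 8 transporters in which high-intake-fed replicate 2 (red squares) was at least 2-fold from the nearest other bird, with high-intake-fed birds left of normally-fed birds. It was the highest bird at 215 CPM for SLC13A2 and the lowest at 2.41 CPM for SLC13A3.

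Other transporter groups gave the following counts. Over all tested models 0.643% rose and 0.829% fell, and 8.67% were higher and 9.71% lower at an unadjusted p under 0.05. Of 43 tested mitochondrial carriers 2 rose and 0 fell by edgeR (11 and 3 at an unadjusted p under 0.05), with a median log2 fold change of 0.38. Of 11 tested facilitated glucose transporters 1 rose and 0 fell (2 higher and 0 lower at an unadjusted p under 0.05), with a median of 0.32. Of 43 tested ATP-binding cassette proteins 0 rose and 2 fell (2 higher and 9 lower at an unadjusted p under 0.05), with a median of -0.12. No test of the difference between these groups and the 86 solute carriers was made.

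Models whose description names no solute carrier were counted as well where it names 1 of 4 kinds of transporter. These were amino acid, monocarboxylate and zinc transporters and bile acid cotransporters, with 74 models and 55 tested. Of these 2 rose and 1 fell, beside 0.643% and 0.829% of all tested models. MONOCARBOXYLATE TRANSPORTER 6 rose, with 37.8, 37 and 28.6 CPM in high-intake-fed livers, against 5.58, 3.31 and 11 CPM in normally-fed livers (log2 fold change 2.38, adjusted p = 0.0416). A transmembrane amino acid transporter protein on chromosome 6 also rose, with 73.7, 45.2 and 65.1 CPM in high-intake-fed livers, against 18.1, 24.1 and 24.9 CPM in normally-fed livers (log2 fold change 1.45, adjusted p = 0.0391). A model described as an amino acid transporter fell, with 55.4, 43.9 and 53.9 CPM in high-intake-fed livers, against 167, 146 and 219 CPM in normally-fed livers (log2 fold change -1.80, adjusted p = 0.0188). Groups of these 3 did not overlap.

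Regulators of the amino acid response and enzymes that make or break down amino acids were listed beside the carriers. None of 13 models of amino acid response and synthesis passed edgeR's adjusted p, while DESeq2 called 2 higher and limma 0. At an unadjusted p under 0.05, 3 were higher (23.1%) and 0 were lower by edgeR. Over all tested models these shares were 8.67% and 9.71%, and DESeq2 called 3.48% higher and 3.81% lower. The 3 higher by edgeR were ATF4, a tribbles model described as tribbles homolog 2, and a sestrin model. The tribbles model had 20.6, 63.9 and 16.4 CPM in high-intake-fed livers, against 12.3, 15.5 and 15 CPM in normally-fed livers. The other tribbles model, described as tribbles homolog 1, had a log2 fold change of -0.64, and the other sestrin models had -0.33, -0.14 and -0.24. No synthesis enzyme was among the 3. Phosphoserine aminotransferase was close to the threshold (log2 fold change 1.26, edgeR unadjusted p = 0.0511), but its groups overlapped. It had 1829, 1795 and 398 CPM in high-intake-fed livers, against 461, 505 and 719 CPM in normally-fed livers. The other synthesis enzymes had an edgeR unadjusted p of at least 0.14. Their log2 fold changes were 0.21 for asparagine synthetase, 0.36 for phosphoglycerate dehydrogenase, 1.14 for phosphoserine phosphatase, and 0.63 and 0.48 for serine hydroxymethyltransferase. ATF4, the transcription factor of the amino acid response, had 489, 317 and 326 CPM in high-intake-fed livers, against 142, 205 and 209 CPM in normally-fed livers (log2 fold change 1.03, adjusted p = 0.125). None of 10 models of amino acid breakdown passed edgeR's adjusted p either, while DESeq2 called 3 higher and 1 lower and limma 0. At an unadjusted p under 0.05, 4 were higher (40%) and 2 were lower (20%), beside the same shares over all tested models. Both lower models of that list were glutamine synthetase, which makes glutamine, and no other model of the list was lower at that p. The more abundant alanine aminotransferase mRNA, which moves nitrogen between alanine and glutamate, had 1804, 947 and 371 CPM in high-intake-fed livers, against 179, 131 and 263 CPM in normally-fed livers (log2 fold change 2.45, adjusted p = 0.0859). Beta subunits of the sodium pump, whose gradient drives SLC6 transport, summed to between 35.9 and 49.7 CPM in high-intake-fed and between 43.6 and 47 CPM in normally-fed livers.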

How the data were processed

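Liver RNA of 3 high-intake-fed and 3 normally-fed geese was depleted of ribosomal RNA. The authors removed ribosomal reads with Bowtie2, described alignment with HISAT2 for these libraries, and deposited read counts and FPKM per gene model, with a coding length. The sources used here tie no genome build, counting program or strand setting to this table. Counts were tested with edgeR 4.0.16 in R 4.3.3 (TMM scaling, filterByExpr with a minimum count of 10 and total of 15, quasi-likelihood test, Benjamini-Hochberg adjustment over 12914 models). SE was taken from the fold change and its F statistic. FPKM deposited by the authors was compared only as a level, and an FPKM of 0 can be a failed estimate. The deposited coding lengths (other values of the table) served to give CPM per kb. Named members were the SLC6 model on chromosome 14, those past adjusted p, the 20 with the smallest p, the 2 with the smallest p in each class and the 8 most abundant per kb. The members and lists were chosen with earlier results of these data known. Marker and enzyme lists were found by description, and CHAC, cystathionine enzymes and the sodium pump alpha subunit were not found by the wording used. No member overlapped another gene model in position. Each library came from a separate bird. The edgeR script was tested on simulated data. Alternatives were RLE, library size alone, library sizes without the 20 most abundant mRNAs, a fit with no filter, a minimum of 10 counts in every library, a replicate block, DESeq2 1.42.0, limma 3.58.1 on log2(CPM + 1) and each bird left out.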

Additional observations from a re-analysis of the deposited data

How the results depend on the processing

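The count of 2 higher transporters was 2 with RLE scaling, without the 20 most abundant mRNAs, with at least 10 counts in every library (where SLC15A5 could not be fitted and SLC35G2 passed at 0.0481) and with limma. It was 0 with library size only, 4 with no filter and 9 with DESeq2, and the count of 0 lower transporters became 2 with DESeq2. Leaving out 1 bird gave between 0 and 3 higher and between 0 and 1 lower transporters. It gave between 3 and 8 lower past the fold threshold, and a median between -0.145 and 0.041. The cause of these shifts was not tested. Between 13 and 22 transporters were lower without overlap in these fits, but smaller groups are more readily free of overlap. Without high-intake-fed replicate 2, the lower count without overlap over all models went from 1716 to 2326. On the higher side it went from 1430 to 2099, and from 12 to 15 for the transporters. Replicate numbers do not pair the birds: the deviations of same-numbered birds correlated at -0.161, 0.0312 and -0.183 for numbers 1, 2 and 3, and with a replicate block the count of higher transporters was 0. Over all models, 83 higher and 107 lower calls became 23 and 38 with the block, 168 and 167 with no filter, 451 and 493 with DESeq2, and between 10 and 312 higher and 20 and 199 lower with 1 bird left out.

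Of 31 named transporters, 25 kept their direction under every alternative in which they were fitted (SLC15A5, SLCO4A1 and the SLC15A1 model on chromosome 7 could not be fitted at 10 counts in every library). The others changed sign when a bird was left out, over ranges of -0.20 to 0.20 for SLC45A4, -0.06 to 0.75 for the BGT1-type model, -0.16 to 0.80 for SLC31A1, -0.36 to 0.36 for SLC17A9, -0.30 to 0.05 for SLC17A5 and -0.42 to 0.15 for SLC35F5. Most named transporters were chosen for a small p in these same data, and many of them had groups without overlap. For such a model, leaving out a bird can hardly reverse the direction, so the count of 25 does not measure stability. All of those that changed sign had overlapping groups. Alternatives for the overlap and the fold threshold were chosen after seeing the data. Levels in CPM per kb were between 2.5 and 23.6 times the deposited FPKM in 29 named transporters. The 34 transporters not tested averaged at most 0.91 CPM.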

Other observations

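Some transporters lay below the filter and still differed in counts, chosen after their values were seen. SLC26A6, an anion exchanger in mammals, had 28, 35 and 8 counts in high-intake-fed libraries, against 6, 7 and 0 in normally-fed libraries. Its groups did not overlap in CPM, but only narrowly, at 0.486 CPM in high-intake-fed replicate 3 and 0.413 CPM in normally-fed replicate 2. Of all tested models, 11.1% were higher without overlap. Duplicate models of 1 description were also seen: an SLC35 model on chromosome 10 and one on an unplaced contig have the same coding length of 669 bases, and 2 SLC31 models on chromosomes 23 and 37 the same of 531 bases. Whether such pairs share reads was not tested, and their separate values are uncertain. The SLC35 model on chromosome 10 had 0.208, 8.37 and 1.7 CPM in high-intake-fed livers, against 0.465, 1.42 and 0.579 CPM in normally-fed livers.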
